A study of Mus musculus with 6 samples.

Results

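The 5 subunits of the transcription factor NF-κB (*Nfkb1*, *Nfkb2*, *Rel*, *Rela* and *Relb*) and 5 of its inhibitors (*Nfkbia*, *Nfkbib*, *Nfkbie*, *Nfkbiz* and *Tnfaip3*) were examined in monocytes from the inflamed CNS. These 10 genes were taken by name from 54232 genes in the deposited tables, and all 10 were among the 11254 genes with enough reads to be tested. None of the 10 differed between WT and *Ifnar1*-/- monocytes at the thresholds used, although every estimate was higher in WT, by 1.09- to 1.46-fold.

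RNA-seq was performed on monocytes of mice with EAE, the mouse model of multiple sclerosis, which received 30000 IU of rIFN-β per day. The mice were mixed BM chimeras, in which irradiated GFP+ recipients were reconstituted with equal numbers of BM cells of 2 donor types, WT carrying CD45.1 and *Ifnar1*-/- carrying CD45.2. Donor-derived monocytes (GFP-CD45+CD11b+Ly6ChiLy6G-) were sorted from the CNS at disease peak, giving 3 WT and 3 *Ifnar1*-/- libraries. *Ifnar1* encodes a chain of the type I IFN receptor, so the comparison asks how direct sensing of IFN changes monocytes that developed in the same kind of host. All 6 libraries therefore came from irradiated, immunized and rIFN-β-treated chimeras, and no untreated or non-chimeric monocytes enter the comparison. The donor deletion was not limited to monocytes. WT and *Ifnar1*-/- donors also differed in their CD45 allele, so the effects of the receptor and of the donor background cannot be told apart. The age of the mice was not given in the sources used here. Both donor populations were sorted from the same kind of chimera, of which there were 3, so the groups probably share animals. The labels do not tie a library to a mouse, and p-values measure the spread between these libraries.

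NF-κB proteins act as dimers. In resting cells the dimers of RELA, REL and p50 (the product of *Nfkb1*) are held in the cytoplasm by the IκB proteins, and signals from Toll-like, IL-1 and TNF receptors lead to phosphorylation and degradation of IκB, which releases the dimers to the nucleus. A slower, noncanonical branch processes the *Nfkb2* product p100 to p52, the partner of RELB. Many inhibitors, above all IκBα (*Nfkbia*) and A20 (*Tnfaip3*), are themselves NF-κB target genes and end the response, and in myeloid cells the pathway drives inflammatory cytokine genes. NF-κB activity is set mostly by protein degradation and nuclear entry, which RNA levels do not measure.

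Because NF-κB target genes are found among its own inhibitors, the promoters of the 10 genes were searched for the letters of its binding motif. RefSeq promoter windows (GRCm38.p6, from 250 bases before to 50 after a transcript start) were at hand for 7 of the 10 genes, in 10 windows. *Nfkb1*, *Relb* and *Nfkbiz* had none. The κB motif, a run of 10 bases with 2 free positions, was searched on both strands. It was found in windows of 4 of these 7 genes (*Nfkb2*, *Rel*, *Nfkbia* and *Tnfaip3*), that is in 6 of the 10 windows. Windows 2 and 3 of *Nfkb2* overlap and hold the same site, so that site was counted in both. The motif was found in 1.63% of all 32851 windows and 1.90% of all 27025 genes in the table. A stricter form with 1 free position, whose matches are a subset of the first, was found for *Nfkb2* and *Nfkbia* and for 0.466% of all genes. A looser form with 3 free positions, which includes the other two, added *Nfkbie* and was found for 6.305% of all genes. The sites of the first form, and the *Nfkbie* site, are printed below with 10 bases on either side, on the strand that carries the motif, with the motif in capitals.
Nfkb2, chr19:46304716-46304745 (+): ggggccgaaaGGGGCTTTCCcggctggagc
Nfkb2, chr19:46305695-46305724 (+): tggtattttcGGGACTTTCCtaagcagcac
Rel, chr11:23771041-23771070 (+): ggggagggggGGGGATTTCCcgctgcttac
Nfkbia, chr12:55492657-55492686 (+): gtcaggcgcgGGGAATTTCCaagccagtca
Tnfaip3, chr10:19015403-19015432 (+): ttgccaacagGGGGATTTCCgatggaaatt
Nfkbie (looser form), chr17:45555584-45555613 (+): gcagcaaacaGGGGGATTCCggaggggcgg
The *Rel*, *Nfkbia* and *Nfkbie* sites lay in intergenic sequence 91, 29 and 106 bases before the transcript start, while the *Tnfaip3* site and both *Nfkb2* sites fell in exons annotated as UTR of the same gene. The *Rela* and *Nfkbib* windows held none of the 3 forms. The element bound by the IFN-activated complex ISGF3 (ISRE, likewise 10 bases with 2 free positions, on both strands) was found in none of the 10 windows and in 3.44% of all windows. It matched 3 times, overlapping, in the window of the IFN-stimulated gene (ISG) *Isg15*. The window of *Irf7*, another ISG, held no match. A match is a description of these letters, and no match says only that they are not in this window. To set the promoter types side by side, the 200 bases before the *Nfkbia* start region (its NF-κB motif in capitals), the 192 bases before the annotated *Rela* transcripts (no match) and 200 bases before *Isg15* (its overlapping ISRE matches in capitals) are given on the strand of the gene.
Nfkbia, chr12:55492648-55492847 (-): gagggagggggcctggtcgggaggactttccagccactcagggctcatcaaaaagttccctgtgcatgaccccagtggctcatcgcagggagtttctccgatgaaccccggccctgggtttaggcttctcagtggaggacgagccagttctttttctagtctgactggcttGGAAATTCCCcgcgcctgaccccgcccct
Rela, chr19:5637291-5637482 (+): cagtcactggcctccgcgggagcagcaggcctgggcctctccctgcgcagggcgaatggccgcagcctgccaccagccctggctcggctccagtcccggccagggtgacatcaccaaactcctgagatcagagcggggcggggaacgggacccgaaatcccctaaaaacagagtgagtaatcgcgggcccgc
Isg15, chr4:156200819-156201018 (-): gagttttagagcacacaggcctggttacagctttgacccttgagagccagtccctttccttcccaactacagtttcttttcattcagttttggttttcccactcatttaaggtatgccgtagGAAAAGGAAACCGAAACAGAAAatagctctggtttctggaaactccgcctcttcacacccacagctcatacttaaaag

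The libraries held 4531782 to 7321380 expected counts, of which mitochondrial rRNA took 12.3 to 22.7%. *Ifnar1* itself was measured at 110, 102 and 109 normalized CPM (CPM, counts scaled to a common library size after TMM normalization) in *Ifnar1*-/- and at 153, 126 and 111 in WT libraries (log2 fold change 0.28, SE 0.15, edgeR adjusted p = 0.360). A gene-level value does not show which part of the transcript was read, so it does not check the labels. ISGs separated the groups: 11 of 12 listed ISGs were higher in WT (median log2 fold change 4.08), and *Irf7*, the regulator of IFN genes, rose from 25.8, 32.7 and 31.8 to 721, 413 and 393 normalized CPM. Among 6 monocyte markers, *Ly6c2*, part of the antigen used in the sort, was higher in WT (log2 fold change 1.40, edgeR adjusted p = 0.00957). The other 5 did not pass, with estimates from -0.62 (*Ccr2*, lower in every WT library, edgeR adjusted p = 0.143) to 0.28 (*Csf1r*), and 3 of the 6 were negative. Summed monocyte marker levels were 4628 to 6629 TPM (the deposited transcript level per length) in WT and 5152 to 5564 in *Ifnar1*-/-. All 7 tested of 10 T cell markers had higher estimates in WT (median log2 fold change 1.51, 0 passing the thresholds). The summed level of all 10 was 21.6 to 53.8 TPM in WT and 7.93 to 20.7 in *Ifnar1*-/- libraries. Summed levels of 9 neutrophil markers were 320, 1486 and 4382 TPM in WT and 1680, 1525 and 4371 in *Ifnar1*-/- libraries 1, 2 and 3, while *Ly6g* had 0 to 4 counts per library. Of 5 B cell markers, 4 had at most 3 counts in any library, and *Cd79b* had 2, 4 and 5 counts in *Ifnar1*-/- and 11, 7 and 7 in WT libraries. In sorted bulk samples, fewer cells of a type and less RNA per cell cannot be told apart, and the part of other cells in the values below was not tested.

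Across all tested genes, 240 of 11254 (2.13%) met both thresholds in edgeR's quasi-likelihood test, which were an adjusted p no higher than 0.05 and a 1.5-fold change or more, 188 of them (1.67%) higher in WT. None of the 10 NF-κB genes did, and none did with DESeq2, limma-voom or limma on log2(TPM + 1). At an unadjusted p below 0.05, edgeR gave 4 of the 10 (*Rela*, *Relb*, *Nfkb2* and *Nfkbie*), all higher in WT, where 9.69% of all tested genes reached this with higher WT values. DESeq2 and limma-voom gave 4 each and limma on TPM gave 0. WT and *Ifnar1*-/- libraries did not overlap in normalized CPM for 6 of the 10 (the same 4 with *Nfkbia* and *Nfkbib*), where 11.1% of all tested genes had every WT library above every *Ifnar1*-/- library. The median log2 fold change (WT over *Ifnar1*-/-) was 0.37 over the 10 genes, 0.49 over the subunits, 0.37 over the inhibitors and -0.01 over all tested genes. All 10 estimates were positive, as were 48.2% of all tested genes.

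**Figure D1:**
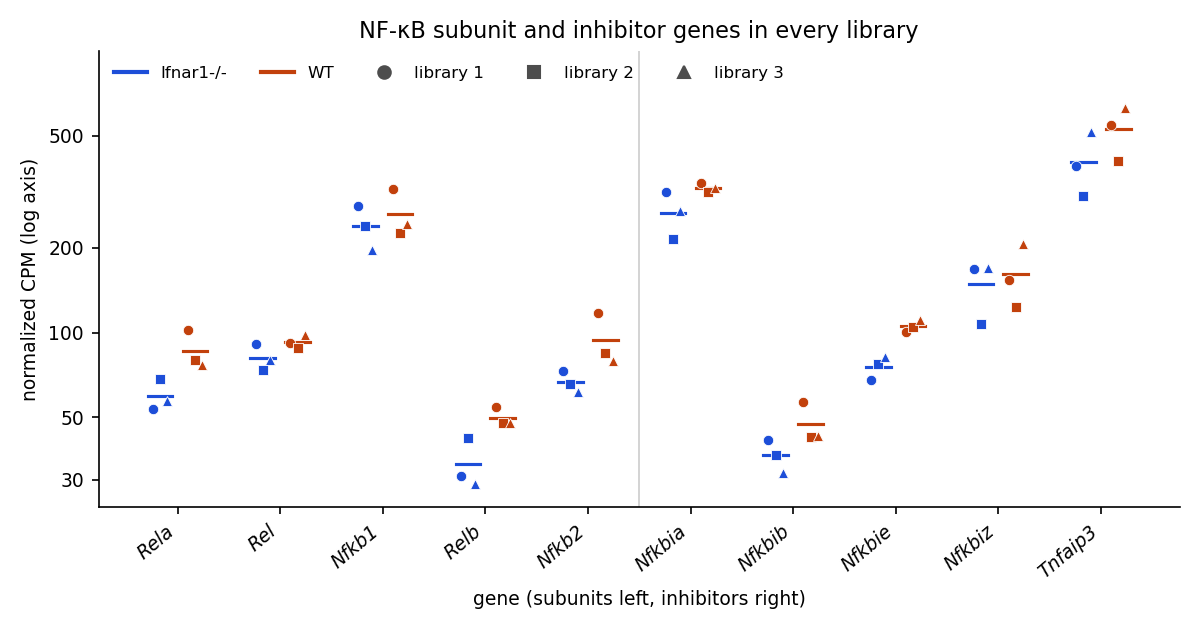
Normalized CPM (log axis) of the 10 genes in each of 3 *Ifnar1*-/- (blue) and 3 WT (orange) libraries, with symbols for library 1, 2 and 3 and bars for group means. *Tnfaip3* spans 306 to 626 and *Relb* 29.1 to 54.2 normalized CPM, and the groups are separate for 6 genes.

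Among the canonical subunits, *Rela* had the clearest separation. *Rela* (ENSMUSG00000024927.7, GRCm38 chr19:5637483-5648130, plus strand) encodes p65, the main transactivating subunit. It was measured at 53.6, 68.3 and 57.2 normalized CPM in *Ifnar1*-/- and at 102, 80.1 and 76.4 in WT libraries. All WT libraries lay above all *Ifnar1*-/- libraries, and the highest value was that of WT library 1. On TPM, WT library 1 was instead the lowest of the WT libraries (28.7, 32.6 and 31.1 TPM). The group means of 86.2 ± 13.9 and 59.7 ± 7.66 (SD, n = 3 each) gave a log2 fold change of 0.53 (SE 0.16, 95% interval 0.17 to 0.89, or 1.13- to 1.86-fold), which did not pass after adjustment (edgeR adjusted p = 0.132). The exact two-sided permutation test gave p = 0.1, the smallest possible with 3 libraries against 3.

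*Rel* (ENSMUSG00000020275.9, chr11:23736847-23770970, minus strand) encodes c-Rel, a subunit prominent in leukocytes. Its values were 90.7, 73.4 and 79.8 normalized CPM in *Ifnar1*-/- and 92.1, 88.2 and 98.3 in WT libraries. The groups overlapped, since *Ifnar1*-/- library 1 exceeded WT library 2, and the log2 fold change was 0.19 (SE 0.14, interval -0.12 to 0.50, edgeR adjusted p = 0.509). *Nfkb1* (ENSMUSG00000028163.17, chr3:135584655-135691547, minus strand) encodes p105, the precursor of p50. It was at 281, 239 and 197 normalized CPM in *Ifnar1*-/- and at 322, 226 and 242 in WT libraries. These values were interleaved, with WT library 2 below 2 of the 3 *Ifnar1*-/- libraries. The log2 fold change of *Nfkb1* was 0.14 (SE 0.19, interval -0.27 to 0.56, edgeR adjusted p = 0.740), and it turned to -0.02 without WT library 1.

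The noncanonical pair *Relb* and *Nfkb2* had estimates close to that of *Rela*. *Relb* (ENSMUSG00000002983.17, chr7:19606217-19629438, minus strand) was measured at 31.0, 42.4 and 29.1 normalized CPM in *Ifnar1*-/- and at 54.2, 47.6 and 47.8 in WT libraries. *Nfkb2* (ENSMUSG00000025225.14, chr19:46304320-46312385, plus strand) was at 73.3, 65.9 and 61.4 in *Ifnar1*-/- and at 117, 84.8 and 79.0 in WT libraries. Neither gene overlapped between groups, and WT library 1 was the highest for both on this scale, though for neither on TPM. The log2 fold change of *Relb* was 0.55 (SE 0.17, interval 0.17 to 0.92, edgeR adjusted p = 0.135) and its fold interval of 1.13 to 1.89 reached highest among the 10 genes. For *Nfkb2* it was 0.49 (SE 0.17, interval 0.10 to 0.87, edgeR adjusted p = 0.178). The 2 subunits of this branch and *Rela* were thus the 3 with the largest estimates, while *Nfkb1* and *Rel* had the smallest among subunits. With offsets for GC content and length, described below, *Nfkb2* (0.09) was under *Rel* (0.19), and *Relb* was at 0.19. *Rela* (0.34) remained the largest of the subunits and *Nfkb1* (0.01) the smallest. These differences between subunits were not tested.

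Of the classical IκB proteins, which mask the nuclear localization signals of NF-κB dimers, *Nfkbie* (IκBε) had the smallest p of all 10 genes. *Nfkbie* (ENSMUSG00000023947.7, chr17:45555703-45563169, plus strand) was measured at 68.0, 77.1 and 81.7 normalized CPM in *Ifnar1*-/- and at 100, 105 and 110 in WT libraries. The groups were separate, with little spread in either (105 ± 4.96 and 75.6 ± 6.98, SD, n = 3 each). The log2 fold change was 0.48 (SE 0.14, interval 0.18 to 0.78, edgeR adjusted p = 0.113). *Nfkbia* (ENSMUSG00000021025.8, chr12:55489410-55492647, minus strand) encodes IκBα, the fast feedback inhibitor. It was at 315, 214 and 270 normalized CPM in *Ifnar1*-/- and at 339, 316 and 326 in WT libraries. *Ifnar1*-/- library 1 and WT library 2 almost met, and the *Ifnar1*-/- libraries were more spread (SD 50.5) than the WT libraries (SD 11.5). The log2 fold change of *Nfkbia* was 0.30 (SE 0.17, interval -0.07 to 0.66, edgeR adjusted p = 0.384).

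*Nfkbib* (ENSMUSG00000030595.15, chr7:28758251-28767512, minus strand) encodes IκBβ, which is degraded more slowly than IκBα. Its values were 41.7, 36.8 and 31.8 normalized CPM in *Ifnar1*-/- and 56.8, 42.5 and 42.8 in WT libraries. The groups did not overlap, but *Ifnar1*-/- library 1 was within 1 unit of WT library 2. The log2 fold change of *Nfkbib* was 0.37 (SE 0.17, interval -0.0047 to 0.74, edgeR adjusted p = 0.285).

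The other 2 inhibitors varied most between libraries of the same group. *Nfkbiz* (ENSMUSG00000035356.17, chr16:55811375-55838899, minus strand) encodes the nuclear protein IκBζ, which can both restrain NF-κB and activate secondary genes such as *Il6*. It was at 168, 108 and 170 normalized CPM in *Ifnar1*-/- and at 154, 124 and 206 in WT libraries. The groups overlapped fully apart from WT library 3, and the log2 fold change was 0.12 (SE 0.23, interval -0.38 to 0.62, edgeR adjusted p = 0.826). It turned to -0.05 without *Ifnar1*-/- library 2 and to -0.07 without WT library 3.

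*Tnfaip3* (ENSMUSG00000019850.11, chr10:19000910-19015657, minus strand) encodes A20, which edits ubiquitin chains on signaling adaptors upstream of IκB kinase. It was at 392, 306 and 514 normalized CPM in *Ifnar1*-/- and at 546, 405 and 626 in WT libraries. WT library 2 lay below *Ifnar1*-/- library 3, and the log2 fold change was 0.38 (SE 0.22, interval -0.11 to 0.87, edgeR adjusted p = 0.404). *Tnfaip3*, *Nfkbiz* and *Nfkbie* were highest in library 3 of each group. For *Nfkbiz* in *Ifnar1*-/- the lead was small (170 against 168 normalized CPM in library 1). Libraries 3 had the highest neutrophil marker sums (4371 TPM in *Ifnar1*-/- and 4382 in WT). Not every neutrophil marker followed, since *Mmp8* was highest in library 2 of each group, and a link to neutrophils was not tested. Both libraries 3 were left out in a comparison added after the data were seen. The log2 fold change was then 0.46 for *Tnfaip3*, 0.03 for *Nfkbiz* and 0.51 for *Nfkbie*, and again 0 of the 10 genes passed.

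**Figure D2:**
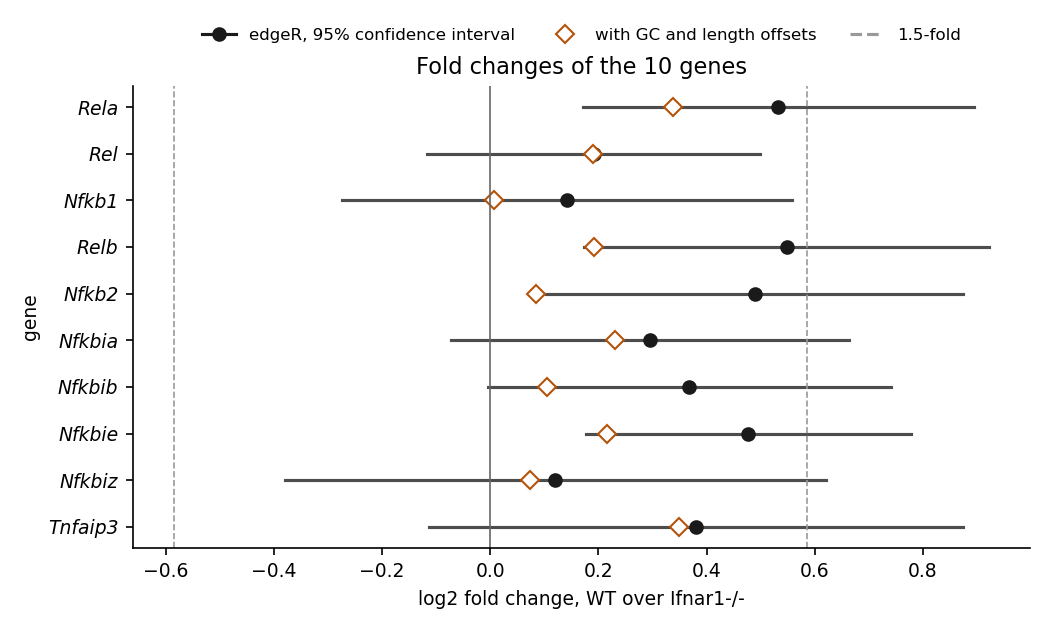
Log2 fold change (WT over *Ifnar1*-/-) of each gene with its 95% confidence interval from edgeR (black) and the estimate with offsets for GC content and length (open diamonds), with dashed lines at 1.5-fold in either direction. All 10 points lie between 0.12 and 0.55, and the diamonds of *Nfkb2*, *Relb* and *Nfkbib* fall to 0.09, 0.19 and 0.10.

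Fold changes over the whole transcriptome rose with the GC content of the genes. In the decile of tested genes with the highest GC content (57.5 to 71.3%), the median log2 fold change was 0.27 and 76.2% of genes were higher in WT. In the lowest decile it was -0.19 and 24.3%. *Nfkb2*, *Rela*, *Relb* and *Nfkbib* (58.7, 59.1, 59.9 and 60.5% GC) all lay in the highest decile, in which 23.0% of genes had WT libraries all above *Ifnar1*-/- libraries and 23.6% had an unadjusted p below 0.05 with higher WT values. *Nfkbie* and *Nfkbia* lay in the next deciles (medians 0.17 and 0.12). *Nfkb1*, *Nfkbiz* and *Tnfaip3* lay in the middle (medians -0.01 and -0.04), and *Rel*, at 42.5% GC, lay in a decile with a median of -0.15.

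With offsets for GC content and length in the edgeR fit, the median over the 10 genes fell from 0.37 to 0.19, with all 10 still positive and 0 passing. *Nfkb2* moved from 0.49 to 0.09, *Relb* from 0.55 to 0.19, *Nfkbie* from 0.48 to 0.22, *Nfkbib* from 0.37 to 0.10, *Rela* from 0.53 to 0.34 and *Nfkb1* from 0.14 to 0.01. *Rel* (0.19), *Nfkbia* (0.23), *Nfkbiz* (0.07) and *Tnfaip3* (0.35) moved by less than 0.1. *Rela* was the only one of the 10 with an unadjusted p below 0.05 in this fit (interval 0.05 to 0.63, edgeR adjusted p = 0.289). The mitochondrial rRNA share also differed (12.3 to 17.6% in WT and 15.1 to 22.7% in *Ifnar1*-/-). With mitochondrial and ribosomal RNA genes left out of the fit, the median was 0.39 over the 10 genes and 0.0006 over all tested genes. In the main fit these medians were 0.37 and -0.01.

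**Figure D3:**
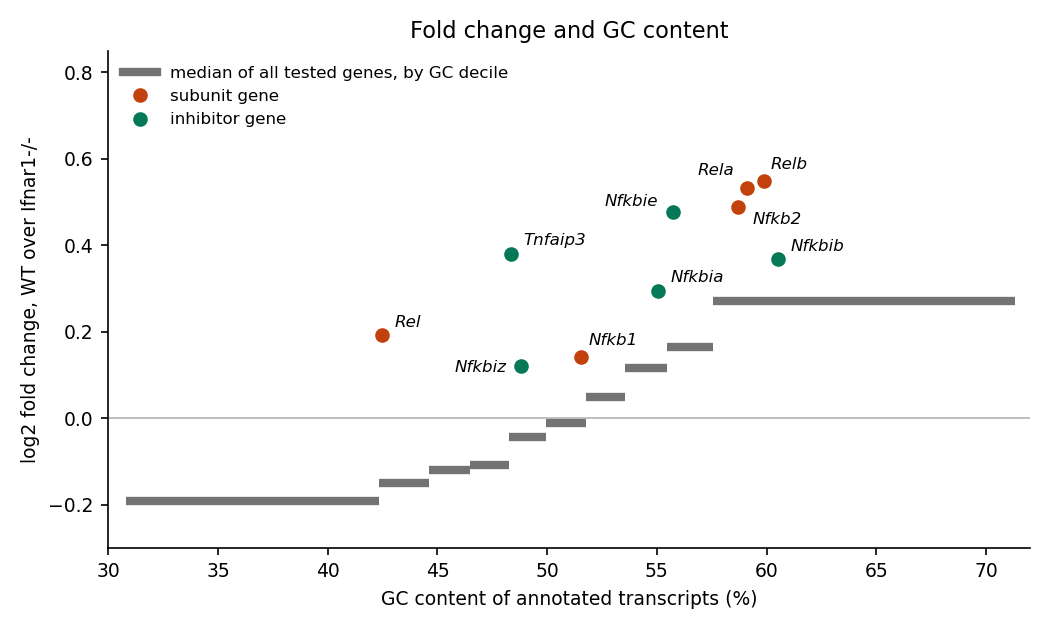
Log2 fold change (WT over *Ifnar1*-/-) against the GC content (%) of annotated transcripts for the 5 subunit (orange) and 5 inhibitor (green) genes, with grey bars for the median of all tested genes in each GC decile. The bars climb from -0.19 to 0.27, and all 10 genes lie above the bar of their decile, *Nfkbib* by the least among the 4 genes of the highest decile.

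On the per-length scale (TPM), which allows levels to be compared between genes, the inhibitors *Nfkbia* and *Tnfaip3* were the most abundant. The mean levels over 6 libraries were 196 ± 36.7 TPM (SD) for *Nfkbia*, 129 ± 34.0 for *Tnfaip3* and 80.6 ± 10.6 for *Nfkb1*. *Nfkbiz* (41.7 ± 11.4), *Nfkbie* (37.3 ± 9.92) and *Nfkbib* (35.0 ± 5.94) followed. The remaining subunits had lower levels, with 26.3 ± 5.94 TPM for *Rela*, 25.0 ± 4.68 for *Nfkb2*, 20.4 ± 6.76 for *Relb* and 11.0 ± 1.85 for *Rel*. The order of the group means was the same in WT and in *Ifnar1*-/-. Each of *Nfkbia*, *Tnfaip3*, *Nfkb1*, *Nfkbib* and *Relb* exceeded the next gene in all 6 libraries, whereas *Nfkbiz* exceeded *Nfkbie* in 3, *Nfkbie* exceeded *Nfkbib* in 4, *Rela* exceeded *Nfkb2* in 4 and *Nfkb2* exceeded *Relb* in 4, so that these neighbours were not separated. Thus *Nfkb1* RNA was the most abundant subunit RNA, with 2.54 to 4.74 times the TPM of *Rela*.

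**Figure D4:**
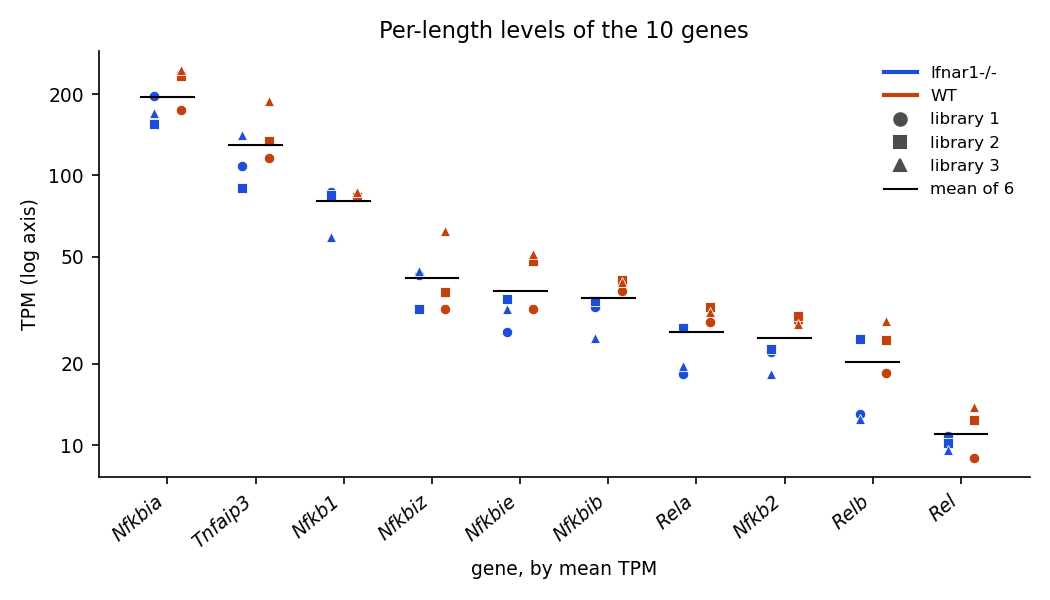
TPM (log axis) of the 10 genes in each of 3 *Ifnar1*-/- (blue) and 3 WT (orange) libraries, ordered by the mean of 6 libraries (black bars), with symbols for library 1, 2 and 3. *Nfkbia* (155 to 245 TPM) and *Tnfaip3* (89.6 to 188 TPM) lie at the top and *Rel* (8.97 to 13.8 TPM) at the bottom.

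The balance of inhibitor to subunit RNA overlapped between groups. The summed TPM of the 5 inhibitors over that of the 5 subunits was 2.69, 2.04 and 3.45 in *Ifnar1*-/- and 2.32, 2.71 and 3.11 in WT libraries. The TPM ratio of *Nfkbia* to *Rela*, the inhibitor and its main target, was 10.7, 5.70 and 8.64 in *Ifnar1*-/- and 6.08, 7.19 and 7.89 in WT libraries, again overlapping. The ratio of *Nfkb1* to *Nfkb2*, the 2 precursor genes, was 3.94, 3.72 and 3.24 in *Ifnar1*-/- and 2.89, 2.75 and 3.08 in WT libraries. It was lower in all WT libraries, and *Nfkb2* has the higher GC content of the pair (58.7 against 51.5%). The ratio of *Nfkb1* to *Rela* was likewise lower in all WT libraries. It was 4.74, 3.11 and 3.01 in *Ifnar1*-/- and 2.91, 2.54 and 2.78 in WT libraries. *Rela* too has a higher GC content than *Nfkb1* (59.1 against 51.5%).

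Which scale was used decided how many genes separated the groups. On TPM, only *Nfkb2*, *Rela* and *Nfkbib* had every WT library above every *Ifnar1*-/- library, 3 genes in place of 6, where 7.11% of all tested genes did. *Relb*, *Nfkbie* and *Nfkbia* lost their separation. *Relb* was at 13.0, 24.7 and 12.5 TPM in *Ifnar1*-/- and 18.5, 24.5 and 29.0 TPM in WT libraries. *Nfkbie* was at 26.3, 34.7 and 31.8 TPM in *Ifnar1*-/- and at 31.9, 48.3 and 50.9 in WT libraries. For *Nfkbia* the values were 196, 155 and 170 TPM in *Ifnar1*-/- and 174, 234 and 245 in WT libraries. The authors' estimated transcript length of *Relb* was 1909 bases in *Ifnar1*-/- library 2 and 1892 bases in WT library 3, against 2190 to 2272 bases in the other 4 libraries. This length, which RSEM weights by isoform, varied by 1.20 times between libraries for *Relb*, by 1.10 times for *Tnfaip3* and by 1.01 times for *Nfkbia*. For *Rel*, *Rela* and *Nfkbie* it was the same in all libraries.

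Reads could be shared with overlapping annotated genes for 3 of the 10. *Nfkb2* overlaps *Psd* and the lncRNA *AC114539.1*, and *Nfkbib* overlaps *Sirt2* and *Ccer2*, all on the opposite strand, and *Nfkb1* overlaps *Gm43430* on the same strand. These overlaps were taken from the spans of the genes, not from their exons. Whether counting used the strand was not given in the sources used here, so how many reads these pairs share, if any, is not known.

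The rest of the pathway was described from lists of its other components. The 3 other IκB-like genes had a median log2 fold change of 0.56 and 0 passed. *Bcl3*, a nuclear partner of p50 and p52, was at 22.1, 35.4 and 25.6 normalized CPM in *Ifnar1*-/- and at 54.5, 44.8 and 41.1 in WT libraries. Its groups were separate, with a log2 fold change of 0.76 (SE 0.20, edgeR adjusted p = 0.0841) that did not move with the GC and length offsets (0.76) and passed with DESeq2. *Nfkbil1* had 0.56 (edgeR adjusted p = 0.370).

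None of 11 genes of kinases upstream of NF-κB and their adaptors or regulatory subunits passed (median log2 fold change 0.13). The smallest p-values were those of *Ikbke*, a noncanonical IκB kinase (0.42, edgeR adjusted p = 0.239), and *Map3k14*, the NIK kinase of the noncanonical branch (0.61, edgeR adjusted p = 0.251), on the higher side. On the lower side they were those of *Tab3*, an adaptor of the kinase TAK1 (-0.30, edgeR adjusted p = 0.395), and *Chuk*, the kinase IKKα (-0.24, edgeR adjusted p = 0.476). The values of *Ikbke* were 100, 108 and 95.3 normalized CPM in *Ifnar1*-/- and 170, 115 and 120 in WT libraries, with WT library 1 the highest.

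Of 14 ubiquitin ligases and adaptors, 1 was higher in WT and 0 lower (median log2 fold change 0.14). It was *Rnf31*, encoding HOIP, the catalytic subunit of the linear ubiquitin chain assembly complex, at 22.8, 27.1 and 28.9 normalized CPM in *Ifnar1*-/- and 51.1, 41.2 and 39.9 in WT libraries (log2 fold change 0.75, SE 0.16, edgeR adjusted p = 0.0424). This call was lost without any one of the 6 libraries and with the GC and length offsets (log2 fold change 0.51, edgeR adjusted p = 0.106). It was also lost with limma on log2(TPM + 1). *Rbck1*, the HOIL-1 subunit of the same complex, had 0.32 (edgeR adjusted p = 0.352), while *Ube2n* (-0.18, edgeR adjusted p = 0.565) and *Malt1* (-0.11, edgeR adjusted p = 0.748) led the lower side.

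Among 13 other negative regulators, 0 passed, the median log2 fold change was -0.02, and there were 6 positive and 7 negative estimates. *Zc3h12a*, encoding the RNase Regnase-1, had 0.48 (edgeR adjusted p = 0.137) and the A20-binding gene *Tnip1* 0.72 (edgeR adjusted p = 0.264). *Tnip1* was at 197 normalized CPM in WT library 1 and at 64.6 to 104 in the other 5 libraries. Lower estimates were led by *Tnip3* (-0.56, edgeR adjusted p = 0.150) and by the deubiquitinase gene *Cyld* (-0.34, edgeR adjusted p = 0.298).

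Of 37 NF-κB target genes, 32 were tested, 1 was higher in WT and 0 were lower (median log2 fold change 0.16, 20 positive and 12 negative). *Cd40*, a costimulatory receptor that itself signals to NF-κB, was at 23.4, 23.0 and 22.1 normalized CPM in *Ifnar1*-/- and at 42.0, 44.8 and 38.1 in WT libraries. The groups were far apart for the spread within them, and the log2 fold change of 0.87 (SE 0.14, edgeR adjusted p = 0.00936) was the same with the GC and length offsets (0.87). The call was lost without *Ifnar1*-/- library 3, without both libraries of replicate 3 and with limma on log2(TPM + 1). *Csf1*, the macrophage growth factor, had the next smallest p (1.46, SE 0.38, edgeR adjusted p = 0.0863), with 37.7 normalized CPM in WT library 1, 16.4 and 16.8 in the other WT libraries and 4.97 to 11.9 in *Ifnar1*-/-.

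The lower estimates of the target list were led by *Ptgs2* and *Il1a*. *Ptgs2*, encoding the prostaglandin enzyme COX-2, was at 81.1, 55.1 and 57.6 normalized CPM in *Ifnar1*-/- and at 54.1, 36.6 and 40.9 in WT libraries (log2 fold change -0.55, SE 0.20, edgeR adjusted p = 0.179). *Il1a*, encoding the cytokine IL-1α, was at 150, 133 and 124 in *Ifnar1*-/- and at 121, 106 and 91.4 in WT libraries (-0.35, SE 0.15, edgeR adjusted p = 0.265). WT libraries were all lower than *Ifnar1*-/- libraries for these 2 of the 32 target genes, as for 12.2% of all tested genes, and neither passed the test. In the other direction, 7 of the 32 (*Ccl4*, *Icam1*, *Traf1*, *Cd40*, *Gadd45b*, *Csf1* and *Tnfrsf1b*) had every WT library above every *Ifnar1*-/- library, as had 11.1% of all tested genes. The 1 of 32 target genes and 0 of 10 subunit and inhibitor genes that passed stand beside 2.13% of all tested genes.

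**Figure D5:**
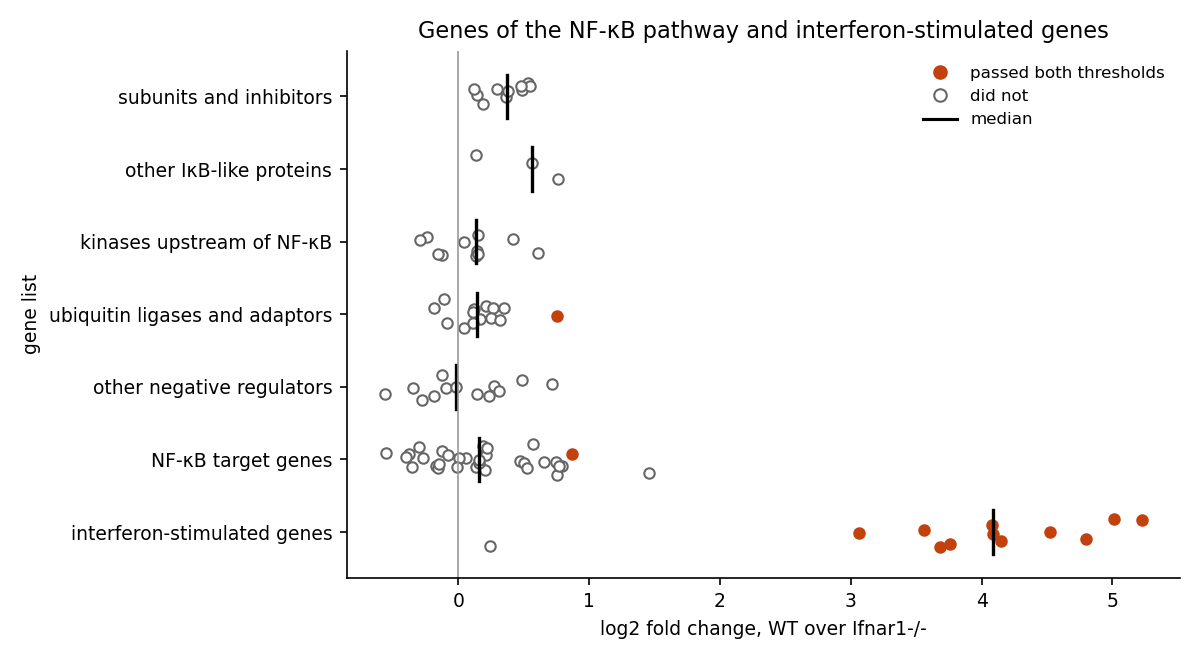
Log2 fold change (WT over *Ifnar1*-/-) of each tested gene (points, filled where both thresholds were passed) in the 10 subunit and inhibitor genes, 5 lists of other NF-κB pathway genes and the ISGs, with bars for the median of each list. The medians of the NF-κB lists lie between -0.02 and 0.56 with 2 filled points among them, *Rnf31* and *Cd40*, and the ISG median is 4.08.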

How the data were processed

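RNA-seq reads of 6 libraries of sorted CNS monocytes were aligned and quantified by the authors with STAR 2.6.0c and RSEM 1.2.31 on GRCm38, per the labels. The labels and the study's methods name different library kits. The deposited files hold an expected count, TPM, FPKM and an isoform-weighted length per gene, 1 library per file. The authors' expected counts are not normalized and need not be whole. They were rounded here. TPM deposited by the authors was used for levels between genes, and the deposited FPKM was not used. GENCODE M21 matched 54165 of 54232 gene identifiers.

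Groups were compared with edgeR 4.0.16 in R 4.3.3 (TMM, filterByExpr with a minimum count of 10, quasi-likelihood test, Benjamini-Hochberg adjustment over 11254 genes, no block). Calls needed an adjusted p no higher than 0.05 with a 1.5-fold change or more. Alternatives used DESeq2 1.42.0 and limma 3.58.1. Exact permutation tests were two-sided, on log2(normalized CPM + 0.5). At 3 counts, a gene stood at 0.410 to 0.662 CPM, and this precision covers counting error only. Scripts were tested on simulated data. No 2 libraries of a group agreed within sampling noise (chi-square per gene 10.8 to 38.1).

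All 10 genes are named, with each called gene and the 2 genes of smallest p in each direction of every pathway list. Some list genes are not reported here. The members and lists were chosen with earlier results of these data known.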

Additional observations from a re-analysis of the deposited data

How the results depend on the processing

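In 18 alternatives (other normalization, tests, filters and offsets, and libraries left out), 0 of the 10 genes passed both thresholds. Without the filter on low counts, *Rela* and *Relb* reached adjusted p-values of 0.0488 and 0.0483 with fold changes below 1.5. *Nfkb1* turned to -0.023 without WT replicate 1 (range -0.023 to 0.29 when leaving out each library), and *Nfkbiz* to -0.05 without *Ifnar1*-/- library 2 and to -0.071 without WT replicate 3 (range -0.071 to 0.29). No other gene of the 10 changed sign. The genes called over the whole table numbered 240, but 469 with DESeq2, 872 with no filter, 119 to 245 when leaving out each library (119 without *Ifnar1*-/- library 1, 120 without *Ifnar1*-/- library 3 and 148 without WT library 3) and 95 without both libraries of replicate 3. Calls among the IκB-like genes rose from 0 to 1 (*Bcl3*) with DESeq2, with no filter and without *Ifnar1*-/- library 2 (0 to 1 when leaving out each library). Among ubiquitin ligases and adaptors they fell from 1 to 0 with GC and length offsets, without both libraries of replicate 3 and without each library (0 to 0). Among other negative regulators they rose from 0 to 1 (*Tnip1*) with no filter. Among target genes, 1 call became 2 with DESeq2, 6 with no filter, 0 to 1 when leaving out each library and 0 without both libraries of replicate 3. The causes were not tested. At 158 to 3837 counts per library the 10 genes were well above the floor of 3 counts.

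Same-numbered WT and *Ifnar1*-/- libraries deviated from their group means with correlations of 0.09, 0.03 and 0.29, and *Ifnar1*-/- library 2 correlated better with WT library 1 (0.10), so the numbers were not taken to pair the samples. The study sorted both populations from the same chimeras, but no source used here says which libraries share a mouse. With a replicate block, 220 genes were called, of which 190 were shared with the 240, and 0 of the 10 genes passed. With the replicate block, with or without DESeq2, the ubiquitin list had 0 calls (*Rnf31* was no longer called) and the target list 2 (*Cd40* and *Csf1*), and the block with GC and length offsets gave 0 and 4 (*Ccl3*, *Ccl4*, *Cd40* and *Csf1*).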
